A study of Mus musculus with 2 samples.

Results

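The miRNA genes described here form the distal miRNA cluster of the imprinted Dlk1-Dio3 region of mouse chromosome 12, which runs from Mir379 to Mir410 and the nearby Mir3072. Members were all miRNA genes of GENCODE M21 that lie wholly on the plus strand between positions 109709000 and 109750000 of build mm10. This position rule uses no measured value and takes 39 of the 2202 miRNA genes in the count tables. The nearest plus-strand miRNA gene outside, Mir882, ends 26.8 kb upstream and had 0 counts in both libraries.

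The measurements are small RNA sequencing libraries of adrenal gland from female B6CASTF1/J mice, an F1 hybrid of the B6 and CAST strains, at 14 days of age. There is 1 group of 2 libraries, labelled biological replicates 1 and 2, with no treatment, and so no contrast of conditions. Replicate 1 is labelled as material of 3 females and replicate 2 as one numbered animal, yet both carry the same donor identifier. Whether glands were pooled was not stated.

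The Dlk1-Dio3 region carries protein-coding genes expressed from the paternal chromosome, among them Dlk1, Rtl1 and Dio3, and noncoding RNAs expressed from the maternal chromosome, among them Meg3, Rian and Mirg. The distal miRNA genes are thought to be cut from long maternal transcripts of this region, so that one precursor yields many miRNAs. They are best known from brain, where neuronal activity induces them, and from the newborn, where mice lacking the cluster adapt poorly in metabolism. A miRNA recognises its target messenger RNAs mainly through its seed, the bases next to its 5′ end. The tables count reads per hairpin gene and give neither the arm of the hairpin nor the parental allele that a read came from.

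The mature sequences that RefSeq lists for the 6 members with the highest levels and for the 3 most abundant groups linked by shared seeds are given first, because the levels below turn on them. Capitals mark the seed, bases 2 to 8, and each sequence is written 5′ to 3′ from the GRCm38.p6 tables. Of the 39 members, 38 matched an entry, with 71 mature sequences and 65 distinct seeds, and Gm27379 did not match.
mmu-miR-411-5p: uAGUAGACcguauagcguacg
mmu-miR-411-3p: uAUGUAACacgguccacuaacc
mmu-miR-379-5p: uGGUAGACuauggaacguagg
mmu-miR-379-3p: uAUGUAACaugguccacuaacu
mmu-miR-1193-5p: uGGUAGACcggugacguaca
mmu-miR-1193-3p: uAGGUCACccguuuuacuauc
mmu-miR-541-5p: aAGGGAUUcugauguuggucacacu
mmu-miR-541-3p: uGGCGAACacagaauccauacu
mmu-miR-382-5p: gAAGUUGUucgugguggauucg
mmu-miR-382-3p: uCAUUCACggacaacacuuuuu
mmu-miR-487b-5p: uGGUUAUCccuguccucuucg
mmu-miR-376a-5p: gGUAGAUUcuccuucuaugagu
mmu-miR-376a-3p: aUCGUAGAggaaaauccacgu
mmu-miR-376c-5p: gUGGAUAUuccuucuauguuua
mmu-miR-376b-5p: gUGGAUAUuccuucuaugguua
mmu-miR-376b-3p: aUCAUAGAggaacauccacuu
mmu-miR-494-5p: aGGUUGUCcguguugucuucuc
mmu-miR-494-3p: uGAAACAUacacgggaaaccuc
mmu-miR-410-5p: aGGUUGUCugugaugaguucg
mmu-miR-410-3p: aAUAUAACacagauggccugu

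The seeds of Mir379 and Mir411 were the same on the 3p arm (AUGUAAC), where 20 of 22 bases were equal, and differed on the 5p arm. The 5p seed of Mir379, GGUAGAC, recurred in Mir1193, with 10 of 20 bases equal. Mir411 and Mir1193 shared no seed. The 5p arms of Mir376c and Mir376b were equal at 21 of 22 bases. The 3p seeds of Mir376a and Mir376b, in contrast, were distinct.

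The cluster was broadly expressed in the gland. At least 10 counts in each library, the minimum for calling a gene detected, were found for 33 of the 39 members, against 358 of all 2202 miRNA genes (16.3%). The 33 had a mean level of 31.7 to 9257 CPM (counts per 1000000 counts on all miRNA genes). CPM values have no length correction, since each read is counted once whatever the length of its hairpin. The other 6 members were at or near 0. Mir654 and Mir453 had 0 counts in both libraries, which allows up to 3 counts, or 0.790 CPM in replicate 1 and 0.596 CPM in replicate 2. Mir1197 had 1 and 4 counts in replicates 1 and 2, Gm27379 3 and 1, Mir544 2 and 15, and Mir758 18 and 4.

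Libraries held 3797107 and 5034257 counts on miRNA genes. The cluster took 154367 of the former, which is 4.07% with a Wilson 95% interval of 4.05 to 4.09. It took 125382 of the latter, which is 2.49% with an interval of 2.48 to 2.50. The mean was 3.28% ± 1.11 (SD, n = 2). Intervals cover counting error only and treat each read as independent, which was not checked with molecular identifiers. The distance between the libraries was far wider than either interval. With the hepatocyte gene Mir122 left out of both totals, the share was 3.62% ± 0.641. In bulk tissue, fewer cells of a type and less RNA per cell cannot be told apart.

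Marker genes of other tissues differed between the libraries. Summed CPM in replicates 1 and 2 was 2896 and 214538 for the hepatocyte marker Mir122 (1 of 1 detected), 109 and 1155 for the kidney and gut list (2 of 4 detected) and 31.3 and 1567 for the striated muscle list (2 of 8 detected). The striated muscle sum was mostly Mir206, at 27.9 and 1552 CPM, while Mir499 stood at 2.63 and 7.75. Among the 8 genes of that list, Mir1a-1, Mir133a-1 and Mir133a-2 were at 0. Mir1a and Mir133a are annotated in several copies, and reads that mapped to several places were set aside, so these values do not show absence. The other direction was seen for the erythroid list (2 of 2 detected), at 2193 and 531 CPM, and the neuroendocrine list (3 of 3), at 34177 and 17814. The neuroendocrine sum was mostly Mir375, at 33797 and 17616 CPM. The leukocyte sum (3 of 3), at 1908 and 879, was lower in replicate 2 only through Mir142, at 1474 and 402 CPM. Mir150 stood at 320 and 363 and Mir223 at 115 and 115. The smooth muscle list (2 of 2) stood at 46450 and 32652 CPM, with Mir145a higher in replicate 2, at 1024 and 1836. The endothelial gene Mir126a was at 142267 and 140629 CPM. These directions are in CPM, before the scaling used for the members below. On those scaled log2 ratios (replicate 2 over replicate 1), Mir126a stood at 0.41, Mir150 at 0.61 and Mir223 at 0.43. Mir145a stood at 1.27, Mir143 at -0.13, Mir144 at -0.37, Mir375 at -0.51, Mir142 at -1.44 and Mir451a at -2.03. Of the neuronal list 0 of 6 genes were detected, with Mir9-2 and all 3 Mir124a genes at 0, although reads that mapped to several places were set aside and these genes exist in several copies. Because Mir122 lowers every other CPM of replicate 2, and because the part of these tissues in the differences below was not tested, shares within the cluster are given beside CPM.

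A pair of neighbouring genes led the cluster. Mir411, from position 109710175 to 109710256, had 49539 and 27527 counts in replicates 1 and 2, or 13047 and 5468 CPM. Mir379, the first member, from 109709060 to 109709125, had 38234 and 28277 counts, or 10069 and 5617 CPM. Mir411 was the higher of the pair in replicate 1 and the lower in replicate 2, so their order was not resolved. Together they held 56.9% of the cluster's counts in the first library, with a Wilson 95% interval of 56.6 to 57.1, and 44.5% in the second, with an interval of 44.2 to 44.8.

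Their RefSeq hairpins are shown with the listed mature arms in capitals, to make plain what a count per gene contains. Reads from either arm add to the same value.
Mir379: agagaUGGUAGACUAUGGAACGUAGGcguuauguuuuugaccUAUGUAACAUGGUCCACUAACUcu
Mir411: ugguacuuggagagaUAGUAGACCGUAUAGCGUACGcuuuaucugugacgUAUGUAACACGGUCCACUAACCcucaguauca
Mir541: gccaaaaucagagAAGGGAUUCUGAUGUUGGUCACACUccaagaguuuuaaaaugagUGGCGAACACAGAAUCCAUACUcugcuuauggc

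Below this pair came Mir541, Mir382 and Mir487b. Mir541 had 14922 and 16657 counts (3930 and 3309 CPM), and both values lay under those of Mir379 and Mir411. Mir382 followed with 9697 and 10964 counts (2554 and 2178 CPM) and Mir487b with 9516 and 7568 counts (2506 and 1503 CPM). Mir382 was above Mir487b in each library, but the ranges of the 2 genes overlapped. Mir376a, a member of the miR-376 family whose transcripts are known substrates of A-to-I RNA editing in brain, had 4667 and 4932 counts (1229 and 980 CPM). It was the last of 6 members with a mean of at least 1000 CPM.

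The next 6 by level lay between 458 and 949 CPM on the mean. Mir409 had 3065 and 5496 counts, and Mir134, known for limiting the size of dendritic spines in neurons, 3074 and 2600. Mir154, which gives its name to the hairpin family that many genes of this cluster belong to, had 2520 and 2750 counts. Mir369 had 2578 and 2147, Mir299a 1572 and 3049, and Mir376c 2863 and 816. Among the 11 neighbouring pairs in the order of the leading 12, the higher gene was above the lower in both libraries in 4. The libraries' ranges did not overlap in 3, namely Mir379 over Mir541, Mir541 over Mir382, and Mir487b over Mir376a. From Mir376a down, no neighbouring pair of the 12 kept its order in both libraries.

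**Figure D1:**
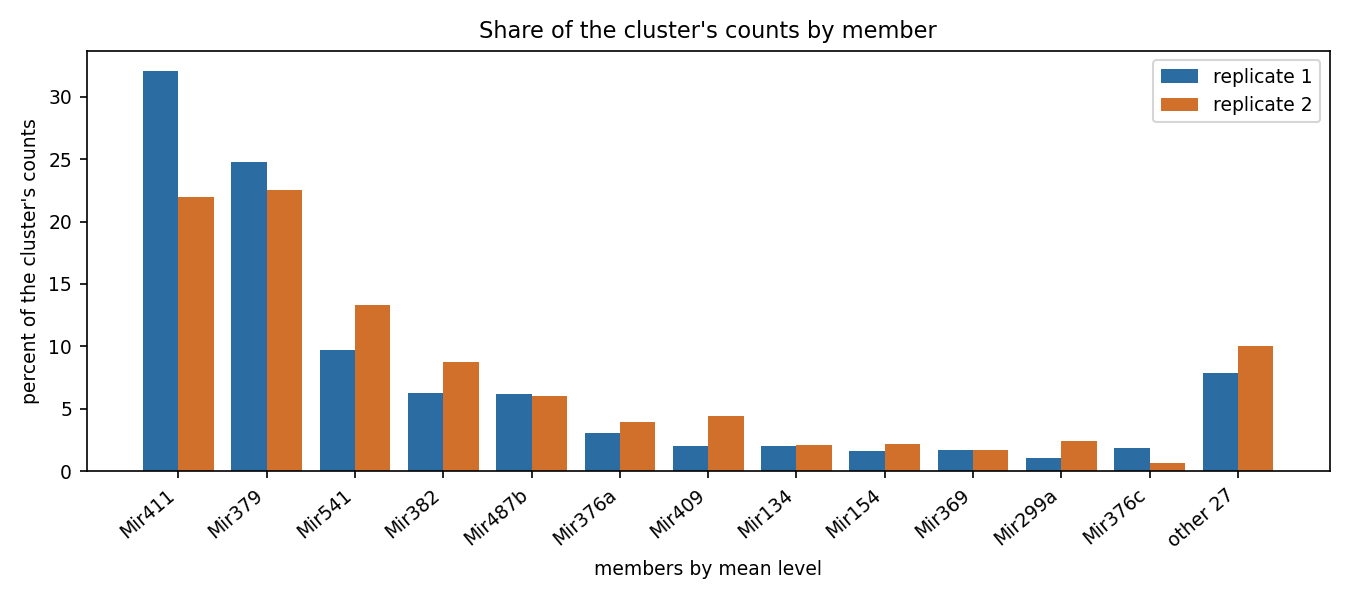
Bars give the percent of the cluster's counts (vertical axis, from 0) held by each of the 12 leading members and by the other 27 together, in replicate 1 and replicate 2. The share of Mir411 was 32.1% in replicate 1 and 22.0% in replicate 2, and the 27 genes outside the leading 12 held 7.85% and 10.05%.

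Counts were concentrated in few members in both libraries. The 3 leading members held 66.5% and 57.8% of the cluster in replicates 1 and 2, a mean of 62.2% ± 6.18 (SD, n = 2). The 10 leading members held 89.3% and 86.9%, a mean of 88.1% ± 1.70. On mean CPM, 2 genes carried at least 50% of the cluster's level and 12 carried 90%. A further 18 members had means between 100 and 1000 CPM, and 9 detected members were below 100, the lowest being Mir412 with 145 and 127 counts.

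The annotated Mirg gene, a long noncoding RNA of the plus strand, covers only the distal part of the cluster. It spans 19.7 kb from 109729764 to 109749460 (ENSMUSG00000097391.8), and its start lies 20.7 kb beyond that of Mir379. Only 14 of the 39 members lay inside it. Of these, 5 sat in introns, 4 within an exon of at least 1 transcript and 5 across an exon boundary. The other 25, from Mir379 to Mir544, lay upstream of Mirg as annotated, so the cluster as a whole is not a set of levels along the annotated transcript.

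The 25 upstream genes held 74.6% of the cluster's counts in replicate 1 and 64.7% in replicate 2, and the 14 within Mirg 25.4% and 35.3%. The upstream excess came from Mir379 and Mir411. Without that pair, a split made after their values were seen, the upstream genes held 17.7% and 20.2% of all cluster counts, which is less than the genes within Mirg in each library. The median member of the detected genes stood at 158 CPM upstream and 266 CPM inside Mirg.

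Inside Mirg, the intronic members were Mir453, Mir154, Mir496a, Mir541 and Mir409, with a sum of 5541 CPM in replicate 1 and 5011 in replicate 2. Those within exons were Mir134, Mir485, Mir377 and Mir410, at 1257 and 845 CPM together. Members across an exon boundary, Mir382, Mir668, Mir412, Mir369 and Mir3072, summed to 3537 and 2926 CPM. The intronic sum owed most to Mir541 and the boundary sum to Mir382.

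**Figure D2:**
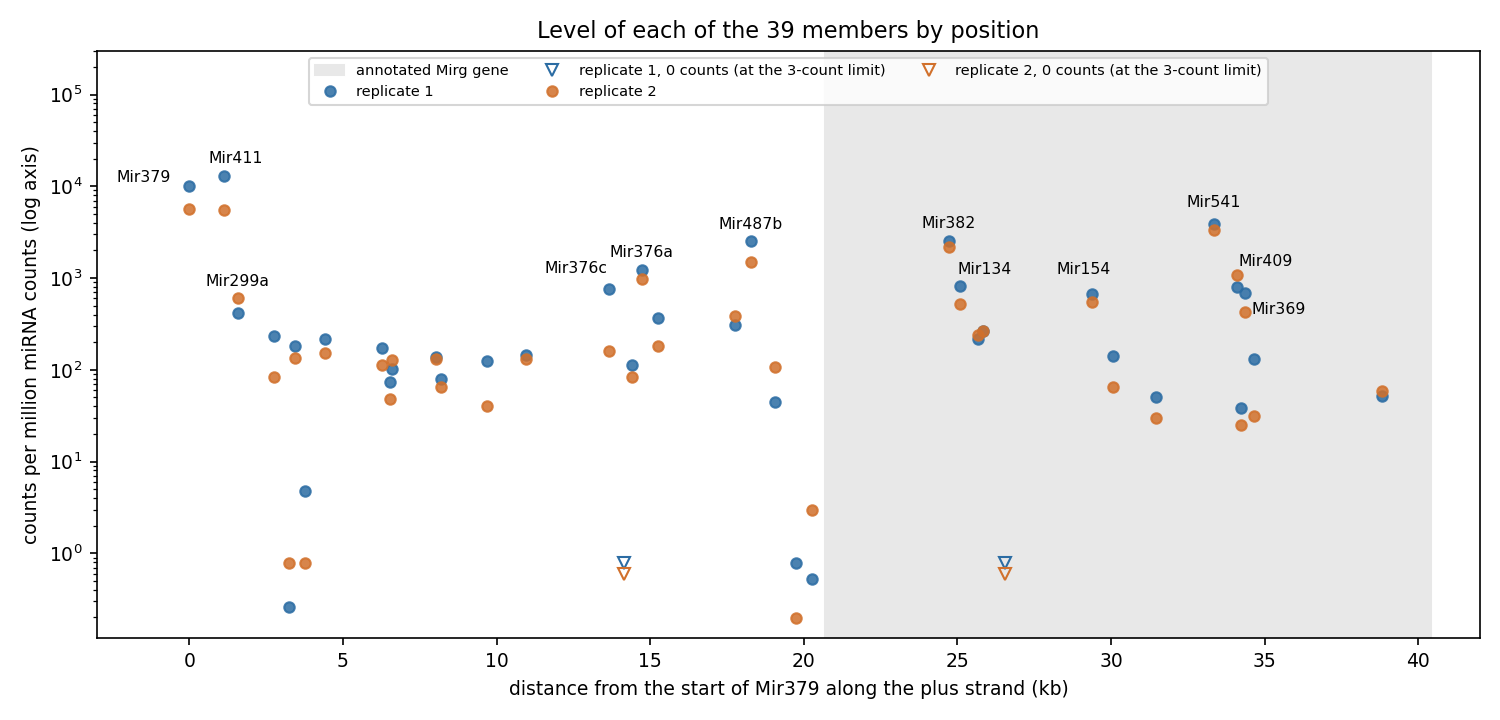
Each point is the level of 1 member in 1 library (vertical log axis, CPM) against its distance in kb from the start of Mir379, with the annotated Mirg gene shaded and genes without counts drawn as open triangles at the 3-count limit. Mir379 and Mir411 stand at the left end between 5468 and 13047 CPM, and members of high and low level are found side by side over the remaining length.

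Levels did not follow a gradient along the strand. Spearman's rho between the order of the 39 members and their mean level was -0.063, and between the level of a gene and that of the next 0.086 over 38 neighbouring pairs. Both are descriptions over genes that share the same 2 libraries. Mir758, at 18 and 4 counts, lies between Mir323 at 691 and 673 and Mir329 at 813 and 762. Mir453, at 0, lies between Mir485 at 1003 and 1346 counts and Mir154.

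Gaps of over 2 kb divided the members into 6 blocks, with a median gap of 556 bases between neighbours. The first block, the 15 genes from Mir379 to Mir667, held 61.5% and 51.1% of the cluster in replicates 1 and 2. Mir376c to Mir300, 5 genes, held 6.06% and 5.65%, and Mir381 to Mir544, also 5 genes, 7.03% and 8.02%. The 5 genes from Mir382 to Mir453 held 9.45% and 12.8%, and the 8 genes from Mir154 to Mir410 15.8% and 22.2%. Mir3072 stood alone at the distal end with 196 and 293 counts. In the first block the larger part in replicate 1 was that of Mir379 and Mir411. The other 13 genes of the block held 4.63% of the cluster in replicate 1 and 6.56% in replicate 2. As these are shares of 1 sum, a smaller part for that pair raises those of the others.

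Listed seeds were mostly unshared. Taking either listed arm, 6 seeds were each held by 2 members, which linked 11 members into 5 groups. The other 27 members with an entry shared none of their listed seeds within the cluster. RefSeq did not list both arms for 5 members, Mir376c, Mir487b, Mir539, Mir485 and Mir453. Seeds of their unlisted arms could not be compared, so further shared seeds are not excluded. Because arms were counted together, the sum over the listed holders of a seed is the most that the seed can account for in those genes, as the other arm is included.

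The group of Mir379, Mir411 and Mir1193 has no seed common to all 3 genes and is linked through Mir379. AUGUAAC, of Mir379 and Mir411, could account for at most 87773 and 55804 counts, or 56.9% and 44.5% of the cluster. GGUAGAC, of Mir379 and Mir1193, could account for at most 38617 and 28922 counts, or 25.0% and 23.1%. These limits overlap, as both include Mir379. The 3 genes together held 88156 and 56449 counts, or 57.1% and 45.0% of the cluster, with Wilson 95% intervals of 56.9 to 57.4 and 44.7 to 45.3. It was the leading group in both libraries, and nearly all of it came from Mir379 and Mir411, as Mir1193 had 383 and 645 counts. Mir376c and Mir376b, joined by UGGAUAU on the 5p arm, summed to 3290 and 1237 counts. Mir376b itself had 427 and 421 counts, so the difference within the pair came from Mir376c. Mir494 and Mir410, joined by GGUUGUC, summed to 1152 and 730 counts, from 651 and 573 for Mir494 and 501 and 157 for Mir410.

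The remaining groups were small. Mir453 and Mir496a, joined by GGUUGCC, summed to 533 and 325 counts, all from Mir496a. Mir1197 and Mir758, joined by GGUUGAC, had 19 and 8 counts. With the shorter seed of bases 2 to 7, Mir382 joined Mir495 and Mir329 joined Mir377, while the leading group stayed the same 3 genes.

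**Figure D3:**
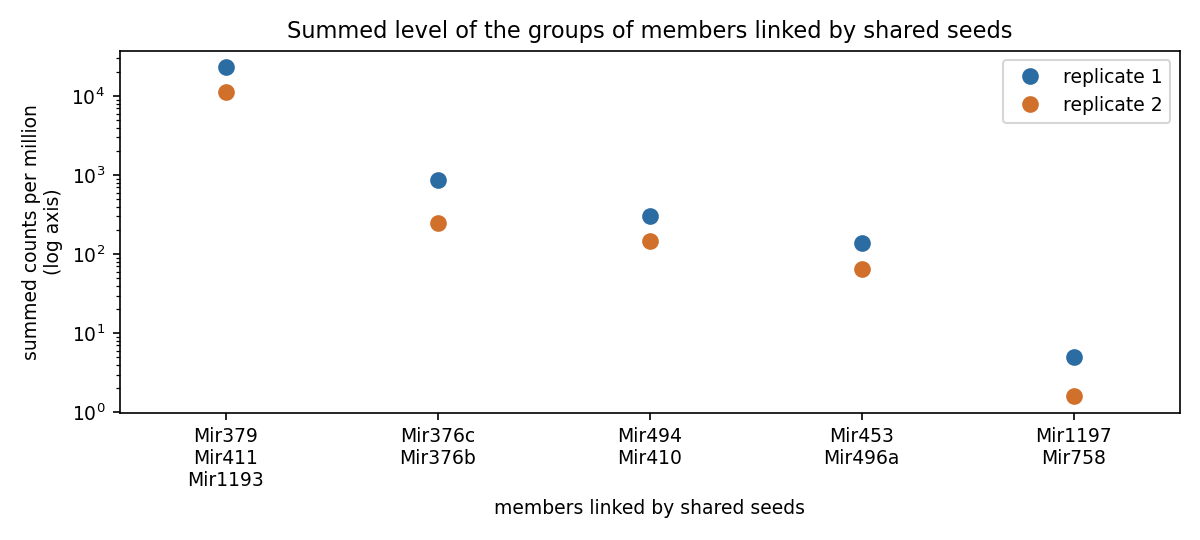
Points give the summed level (vertical log axis, CPM) of each of the 5 groups of members linked by shared seeds in replicate 1 and replicate 2. The group of Mir379, Mir411 and Mir1193, at 23217 and 11213 CPM, lies more than 10-fold above every other group in each library.

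Seeds shared with miRNA genes outside the cluster were found for 11 members, and 4 of the outside genes were detected. Mir672 shares GAGGUUG with miR-377-5p and had 3042 and 2907 counts, more than Mir377 itself at 194 and 152. Mir362 shares ACACACC with miR-329-3p and had 224 and 215 counts, fewer than Mir329. Mir370 of the proximal Dlk1-Dio3 group shares AGGUCAC with miR-1193-3p and had 428 and 273 counts. Mir1983 shares UCACCUG with miR-412-3p and had 170 and 130 counts.

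The hairpins of the cluster had family features that the position rule did not use. Hairpin sequences were the GENCODE transcripts of the 39 genes. UACUUG was found in 10 of the 39 (25.6%), among them Mir411, Mir382 and Mir487b, in 0 of 20 proximal hairpins and in 1.90% of the 2163 other miRNA hairpins. UCGCUU was found in 10 of 39 (25.6%), in 0 of 20 proximal hairpins and in 0.832% of the others. Both motifs were chosen after the sequences had been seen. On the opposite strand UACUUG occurred in 0 and UCGCUU in 1 of the 39. The median level was 216 CPM over the members with UACUUG and 135 CPM over those without it, and the groups overlapped, as Mir453 at 0 holds the motif and Mir379 does not.

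Global alignment placed Mir376c and Mir376b closest, with 82.6% equal bases, followed by Mir543 and Mir382 at 76.3%, Mir411 and Mir758 at 75.6%, and Mir300 and Mir381 at 74.7%. Close hairpins could differ greatly in level, as Mir411 had 49539 and 27527 counts and Mir758 18 and 4. Of 741 pairs of members, 174 reached 60% identity, against 20 of 190 proximal pairs. The median pair was nearly equal, at 54.5% in the distal cluster and 53.5% in the proximal group. The closest proximal pair, at 94.4%, was above the closest distal pair. No listed mature sequence of a member was found whole in the hairpin of another annotated miRNA gene. Over the 33 detected members, level had a Spearman's rho of -0.096 with hairpin length, -0.13 with GC content and 0.17 with the folding energy from RNAfold, which describe these genes in 2 shared libraries.

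Of 71 mature sequences, 42.3% began with U and 38.0% with A, compared with 41.2% and 25.0% of 1667 other mouse entries. Only 5.63% began with C, against 21.1%.

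The members were next compared between the libraries, to see how far each value can be trusted in this tissue. Log2 ratios are replicate 2 over replicate 1, scaled by TMM factors fitted on all detected genes, and with 1 library on each side no p-value was formed. A difference was called at an absolute log2 ratio of at least 1 (2-fold). Among the 33 detected members 5 were called, against 17.9% of all 358 detected genes. The members' share of 15.2% is near this background. By direction, 1 member was higher (3.03%, against 9.22% of all detected genes) and 4 were lower (12.1%, against 8.66%), and the split was not tested.

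The members below replicate 1 by at least 2-fold were Mir376c, Mir410, Mir495 and Mir380. Mir376c differed most, with 2863 and 816 counts in replicates 1 and 2, giving a ratio of -1.79 on the log2 scale (-1.90 to -1.68, a 95% counting interval). Mir410, studied in insulin-secreting cells, had 501 and 157 counts and a ratio of -1.65 (-1.92 to -1.39). Mir495 had 468 and 203 counts and a ratio of -1.18 (-1.43 to -0.94). Mir380 had 888 and 425 counts and a ratio of -1.04 (-1.21 to -0.87), which was -0.98 with DESeq2 size factors and thus no longer called.

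The single member above was Mir539, with 170 and 539 counts and a log2 ratio of 1.68 (1.44 to 1.94). Mir299a came next at 0.98 (0.89 to 1.07) and was called only with DESeq2 size factors, at 1.03. Mir409 stood at 0.87 (0.80 to 0.93) and Mir1193 at 0.77 (0.59 to 0.96). In 3 of the called members, Mir376c, Mir410 and Mir539, the whole counting interval lay beyond 2-fold.

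**Figure D4:**
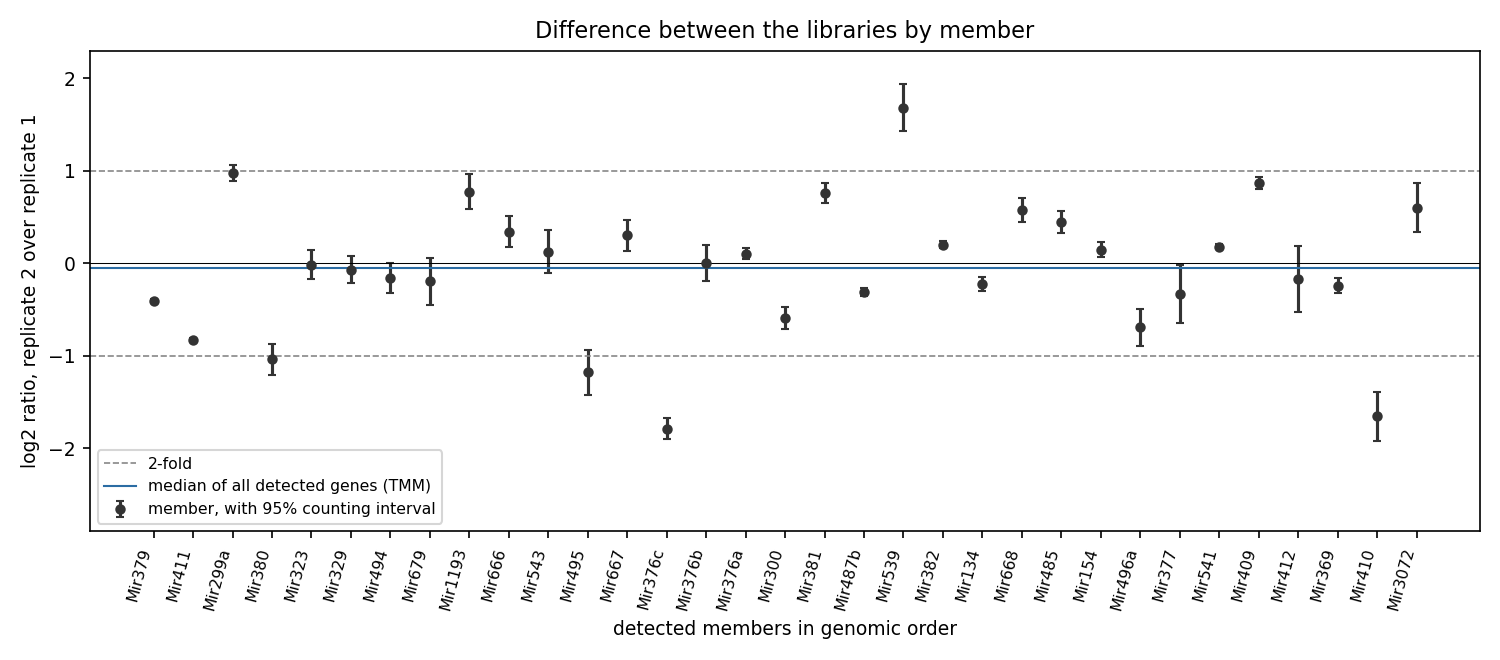
Points give the log2 ratio of replicate 2 over replicate 1 (vertical axis) of the 33 detected members in genomic order, with exact 95% counting intervals as bars, dashed lines at 2-fold and a line at the median of all 358 detected genes. Mir376c at -1.79 and Mir539 at 1.68 are the extremes, and 28 members lie within 2-fold.

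Members called apart stood beside members that were level. Mir376b and Mir376a, in the same block as Mir376c, had ratios of 0.0025 (-0.20 to 0.20) and 0.10 (0.04 to 0.16), although the sign of both changed with the scaling. Mir410 at -1.65 follows Mir369 at -0.24. Over the 33 members, the ratio had a Spearman's rho of 0.11 with order along the strand, -0.0094 with level and 0.26 with GC content of the hairpin. For GC content, rho was 0.18 over the 325 detected genes outside the cluster.

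With TMM factors the median member hardly differed between libraries, with a log2 ratio of -0.015, against -0.056 for all 358 detected genes. Where 0 lies was set by that scaling. Of the members 17 were below 0 and 16 above, where 53.4% of all detected genes were below. Under scaling by totals, 25 members were below 0. The median absolute ratio was 0.34 for members and 0.46 for all detected genes. The sets differ in level, as the lowest mean was 31.7 CPM for detected members and 2.31 CPM for all detected genes. A background matched by level was not formed, here or for the share of members called. Log2 CPM plus 1 of the 39 members had a Pearson r of 0.97 between the libraries, and CPM a Spearman's rho of 0.96.

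With library totals, the summed cluster and its median member were both lower in replicate 2, at log2 ratios of -0.71 and -0.44. With TMM factors the sum, in contrast with the median member, was lower, at -0.28 (95% counting interval -0.29 to -0.27). Mir411 stood at -0.82 (-0.85 to -0.80) and Mir379 at -0.41 (-0.43 to -0.39). Without that pair, an alternative added after seeing the data, the ratio of the sum was 0.086 with TMM factors and 0.14 with DESeq2 size factors, but -0.34 with library totals. Scaling by library totals moved the median of all detected genes to -0.49 and that of the members to -0.44, with 1 member higher and 7 lower, against a background of 5.31% higher and 22.1% lower. Between the TMM factors, DESeq2 size factors and library totals, 9 of 33 members (27.3%) changed sign, Mir541, Mir382 and Mir376a among them, as did 26.3% of all detected genes. Each scaling shifts all ratios by 1 constant, so these are members close to 0.

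The proximal Dlk1-Dio3 miRNA genes, 20 plus-strand genes from the start of Meg3 to the lower bound of the cluster, served for comparison within the same region. They had 15 detected members and held 1.74% ± 0.513 of miRNA counts (SD, n = 2), 2.11% in replicate 1 and 1.38% in replicate 2. Mir127, antisense to the paternally expressed Rtl1, led them with 48272 and 41646 counts, followed by Mir431 with 10085 and 7492 and Mir433 with 9247 and 7148. The median detected gene stood at 193 CPM in the proximal group and 183 CPM in the distal cluster.

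The summed ratios of the distal, proximal and Mir17hg groups were all below 0. That of all other miRNA genes, a sum that includes Mir122, was 0.45. The proximal sum had a log2 ratio of -0.18 and a median of -0.066, with 1 of 15 members called, Mir493 at 1.29 from 115 and 277 counts. The Mir17hg cluster, another polycistron, with 5 of 6 genes detected, had a summed ratio of -0.28 and a median of -0.19, with 0 called, where 17.9% of all detected genes were called. No difference between these groups was tested.

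**Figure D5:**
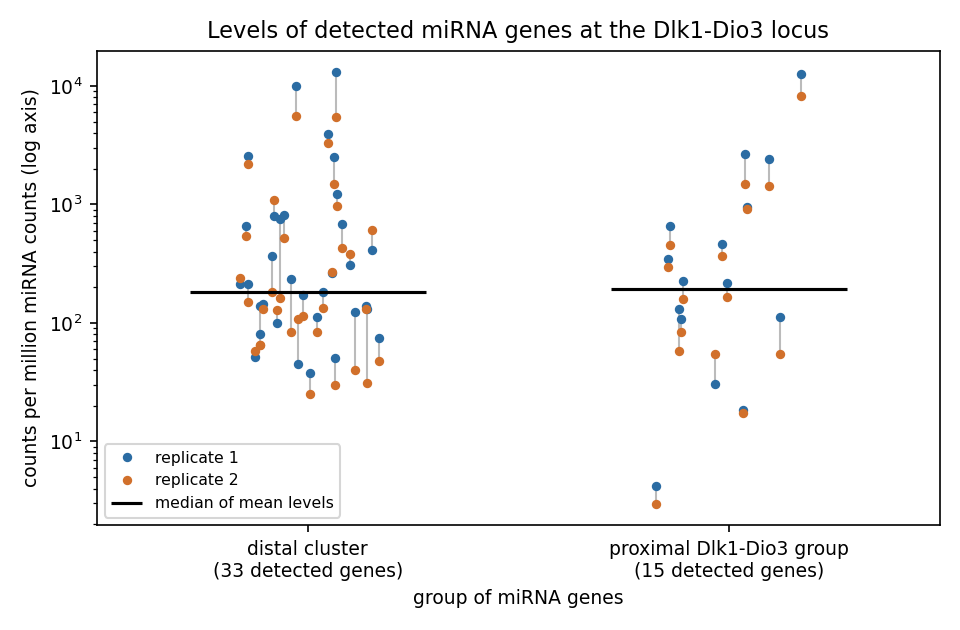
Points give the level (vertical log axis, CPM) of each detected miRNA gene in replicate 1 and replicate 2, joined by a line, for the distal cluster and the proximal Dlk1-Dio3 group, with a bar at the median of the mean levels. The medians, 183 and 193 CPM, are close, and a single proximal gene, Mir127, reaches the range of Mir379 and Mir411.

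Strand mattered for 5 members, each overlapped by a miRNA gene of the minus strand. These were Mir299a with Mir299b, Mir380 with Gm25750, Mir376a with Gm25252, Mir539 with Gm44322 and Mir409 with Gm24321. In the stranded counts used here, Mir376a and Mir409 had 4667 and 3065 counts in replicate 1, while Gm25252 and Gm24321 had 0. In the unstranded counts, Mir380, Mir376a, Mir539 and Mir409 stood at 0 in both libraries, and Mir299a at 1 and 0. The detected members then numbered 28.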

How the data were processed

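Small RNA libraries were made from adrenal gland of female mice, 1 group of 2 libraries. The authors deposited, per library, whole-number counts per miRNA gene that are not normalized, as 3 count columns after 4 summary lines. The build mm10 and annotation GENCODE M21 are as the text files deposited beside the tables give them, while for aligner, counter and trimming the names were not given in the sources used here. Columns have no header. The second count column was read as the gene's own strand, since it holds most counts. Reads mapping to several places (28.0% and 25.0% of reads) were set aside by the authors' counting, per the summary lines of the deposited tables. Library sizes leave those lines out.

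All 2202 gene identifiers matched GENCODE M21. CPM used totals over all miRNA genes, 3797107 and 5034257. Log2 ratios used edgeR's TMM factors (1.16 and 0.862), fitted on the 358 genes with at least 10 counts in each library, and a prior count of 0.5. Intervals of ratios are exact Clopper-Pearson 95% intervals, those of shares Wilson 95% intervals. With 1 group no edgeR test between conditions could be formed, and the p-value of no test is given. The ratio and interval code was tested on simulated counts that held Poisson noise only. Interval coverage was scored after the scaling error had been removed, so it does not include scaling error or spread between libraries. The libraries are labelled biological replicates, but they carry the same donor identifier, so separate animals are not established. Values measure only the spread between these 2.

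Members, lists and tests were chosen with earlier results of these data known. The members named are the 12 of highest mean CPM, the 4 highest and 4 lowest ratios among members with a mean of at least 100 counts, all members of seed groups and those with 0 counts, with the 3 leading proximal genes. Others named, such as Mir381, Mir300, Mir323, Mir329, Mir543, Mir485 and Mir412, were chosen after their values had been seen. Versions were R 4.3.3, edgeR 4.0.16, DESeq2 1.42.0 (size factors only), Python 3.11.15, scipy 1.17.1, Biopython 1.88 and RNAfold 2.7.2.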

Additional observations from a re-analysis of the deposited data

Results flagged for a closer look

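Among the opposite-strand counts, which enter no comparison, Mir299a had 4 in replicate 1, above the 3 counts that a count of 0 allows, and 1 in replicate 2. These are the counts of Mir299b, the miRNA gene annotated on the other strand, and all other members had 0 there in both libraries.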

How the results depend on the processing

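No paired analysis was possible because there is 1 group. No member's listed mature sequence lay whole in another annotated hairpin, so leaving out copies removed no member and was not run. The number of members past 2-fold, 5 of 33, became 8 of 33 with library totals, where 27.4% of all detected genes were called, against 17.9% with TMM factors. It was 3 of 28 without regard to strand, where Mir380 and Mir539 had no counts. It was 10 of 37 with no count minimum, which adds members with few counts, such as Mir1197. The share over all genes was not computed for the unstranded and no-minimum settings. The median member's log2 ratio, -0.015, was 0.041 with DESeq2 size factors, -0.44 with library totals, -0.086 without regard to strand, 0.0073 with no minimum, -0.032 with a minimum of 100 counts and 0.0025 without Mir379 and Mir411. The ratio of the summed cluster, -0.28, was -0.22, -0.71, -0.32, -0.25 and -0.29 under the first 5 of these settings and 0.086 without that pair, whose removal took the share of the cluster to 1.57%. Leaving out 1 replicate at a time gave shares of miRNA counts from 2.49% to 4.07%, shares of the leading seed-linked group from 45.0% to 57.1% of the cluster, and a rho with position from -0.059 to -0.046. The causes were not tested, apart from the genes lost without regard to strand. The 6 members under 10 counts in a library have imprecise values, and whether depth is their limit was not tested.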
